A study of Mus musculus with 60 samples.

Results

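Among PyMT-Bo1 breast cancer cells that had kept the dye DiD in mouse bone, 5 cells carried at least 10 counts of Ifit3 and 21 did not, and the expression of interferon-stimulated genes, antigen presentation genes and cell cycle genes was compared between them. The members were found in the table of counts per gene: of 60 sorted cells, 32 were DiD+, 26 of these had fewer than 10 counts of Cd74 and so entered the comparison, and the remaining 6 were set aside as Cd74-positive. The cells with at least 10 Ifit3 counts are called Ifit3+ here and those below it Ifit3-. Cells are called by the number in their label, and the Ifit3+ cells were cells 22, 68, 75, 80 and 83, in which order their values are given throughout.

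The PyMT-Bo1 line derives from a mouse mammary tumor of the C57BL6 background, and the line used carried luciferase with EGFP, H2B-mApple and Thy1.1 from lentiviruses. Cells were dyed with DiD, a membrane dye that is diluted at each division, and injected into the left heart ventricle of wild-type female C57BL6/J mice aged 8 to 10 weeks, so every cell compared came from the same line, the same treatment and the same kind of host. Bones of 5 mice were pooled 11 days after injection. Thy1.1+ CD45- cells were sorted 1 per well as DiD+ (dormant in the study's terms) or DiD- (proliferative in its terms). All 28 DiD- cells, with no limit on Cd74, served as a further reference.

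The model is 1 cell line, and no label ties a cell to a mouse, so the Ifit3+ cells may all come from 1 animal. Each group was therefore taken as 1 sample, no test between the groups was possible, and the differences below have no replicate check. Since the rule used the measured Ifit3 count, every difference between Ifit3+ and Ifit3- cells is a description of these cells. What stands in place of a test is the range of a ratio when any 1 cell is left out, and a gene is called higher or lower here only where it differed at least 2-fold in every such range.

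The rule left no doubtful cell. Ifit3 had 707, 2506, 76, 366 and 231 counts in the Ifit3+ cells and 0 counts in each of the 21 Ifit3- cells, so the cells just inside and just outside the limit had 76 and 0 counts. Among DiD- cells a single cell had 1 count. Limits of 1 or 50 counts, or counts thinned to one depth, gave the same groups. Of the 6 Cd74-positive DiD+ cells set aside, 5 also had at least 10 Ifit3 counts.

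Library depth overlapped between the groups. Total counts on mouse genes ran from 3687337 to 5961682 in Ifit3+ cells and from 2276789 to 7794219 in Ifit3- cells, and 6024 to 9343 against 6323 to 10456 genes had a count. Spike-in counts made up 1.33 to 6.53% and 0.559 to 4.01% of the library, and the highest share belonged to cell 68, which also had the fewest genes of the Ifit3+ cells. Mitochondrial genes took 1.67 to 1.98% of the counts in Ifit3+ cells against 0.475 to 3.91% (median 1.09%) in Ifit3- cells, of which 4 of 21 reached the lowest Ifit3+ cell. The part of this in the results was not tested. Of the Ifit3+ cells, 1 had a number from 17 to 46 and 4 a number from 63 to 92, against 12 and 9 of the Ifit3- cells. What these number runs stand for is not given in the sources used here. Levels are in CPM, the usual scaling of a gene's counts to a common library total, here the counts on mouse genes of a cell or of all cells of a group added up, and a log2 ratio was taken after adding 1 CPM. The summed totals were 22265985 counts for Ifit3+ cells and 94668206 for Ifit3- cells, so 0 counts allowed a level of up to 0.135 and 0.0317 CPM. Counting error was small beside the differences between cells: Il15, with 47.5 and 9.53 CPM in the groups, had exact Poisson intervals (95%) of 44.7 to 50.4 and 8.92 to 10.2 CPM. Reads carry no molecular identifiers, so intervals and limits cover counting error only.

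Interferons are secreted alarm signals of infection and tissue damage. Type I interferons bind the receptor Ifnar and lead, through the kinases Jak1 and Tyk2, to a transcription factor complex with Irf9 that binds the interferon-stimulated response element (ISRE), whereas interferon gamma binds its own receptor and leads to factors that bind the gamma-activated site (GAS). Ifit3 and nearby Ifit1 code for proteins that bind foreign RNA or the complexes that sense it, and both are among the classical interferon-stimulated genes. In tumors interferon signaling is known for raising antigen presentation and for slowing division.

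The promoters of Ifit3 and of 5 genes called higher in Ifit3+ cells are shown because they differ in these elements. Each is the 160 bases before the start site on the gene's own strand, from RefSeq on GRCm38.p6, with every match in capitals. The ISRE type was GAAA, any 2 bases and GAAA, and the GAS type was TTC, any 3 bases and GAA. Both strands were searched, so an ISRE-type match on the other strand reads TTTC, 2 bases and TTTC.
Ifit3: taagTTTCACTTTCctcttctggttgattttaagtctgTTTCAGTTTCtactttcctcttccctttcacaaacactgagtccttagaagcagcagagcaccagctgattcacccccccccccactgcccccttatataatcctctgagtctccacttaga
Ifit1: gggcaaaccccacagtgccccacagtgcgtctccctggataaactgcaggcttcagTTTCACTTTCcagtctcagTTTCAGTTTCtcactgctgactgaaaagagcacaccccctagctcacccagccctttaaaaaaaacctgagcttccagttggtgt
Isg15: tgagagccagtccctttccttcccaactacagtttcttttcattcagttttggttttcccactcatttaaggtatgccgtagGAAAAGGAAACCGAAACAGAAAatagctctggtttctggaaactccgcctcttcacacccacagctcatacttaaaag
Tgtp2: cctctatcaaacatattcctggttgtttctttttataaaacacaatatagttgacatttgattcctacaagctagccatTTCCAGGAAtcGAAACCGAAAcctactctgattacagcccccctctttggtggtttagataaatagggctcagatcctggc
Igtp: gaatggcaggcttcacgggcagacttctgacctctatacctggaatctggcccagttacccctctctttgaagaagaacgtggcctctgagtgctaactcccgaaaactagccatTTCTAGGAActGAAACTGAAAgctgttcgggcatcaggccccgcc
Gbp7: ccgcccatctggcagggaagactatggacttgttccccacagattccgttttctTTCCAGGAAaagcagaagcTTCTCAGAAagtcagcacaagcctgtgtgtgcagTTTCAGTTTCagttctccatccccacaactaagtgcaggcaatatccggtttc

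Ifit3 (chr19:34583369-34583528, plus strand) and Ifit1 (chr19:34640729-34640888, plus strand) lie on the same chromosome and each held 2 ISRE-type matches and no GAS-type match. Isg15 (chr4:156200819-156200978, minus strand) held 3 overlapping ISRE-type matches. The immunity-related GTPase genes Tgtp2 (chr11:49064213-49064372, minus strand) and Igtp (chr11:58199396-58199555, plus strand) each held a GAS-type match directly followed by an ISRE-type match. Gbp7 (chr3:142530176-142530335, plus strand) held 2 GAS-type matches and 1 ISRE-type match. In windows from 250 bases before to 50 after the start, 3.44% of 32851 RefSeq promoters held the ISRE type and 8.30% the GAS type. The ISRE type was found in 29 of 61 interferon-stimulated effector genes with a promoter in the table (47.5%), 9 of 10 GTPase genes, 5 of 20 class I antigen presentation genes, 2 of 33 S phase genes and 2 of 47 G2/M genes. The GAS type was found in 9, 6 and 2 genes of the first 3 of these lists. A gene was counted if any of its promoters had a match. The list shares are thus not the same measure as the percentages over all promoters. Irf7 had no ISRE-type match in its window. A match is a string of letters and not a measured site.

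Across the transcriptome more genes were lower than higher in Ifit3+ cells. Of 12195 genes that reached 1 CPM in either group, 283 (2.32%) were called higher and 1672 (13.7%) lower, and the median log2 ratio over all of them was -0.11. At least 1 CPM was reached by 10572 of these genes in the 5 Ifit3+ cells and by 11614 in the 21 Ifit3- cells. The groups differ in size, and a call had to hold without 1 of 5 or 1 of 21 cells. Against the 28 DiD- cells, 456 genes were called higher and 1825 lower in Ifit3+ cells, and 357 and 292 in Ifit3- cells. The part of group size in these counts, and in the shares set beside the lists below, was not tested. Only Ifit3 itself, which the rule used, was higher in each Ifit3+ cell than in each Ifit3- cell (0.0082% of genes tested), and no gene was lower in the same sense. The counts of called genes moved with leaving out Cd74-positive cells or not and with the scaling, as given at the end. List medians moved with the number runs, as also given there.

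Interferon ligand genes were nearly absent. Of 21 such genes, 19 had no count in any Ifit3+ or Ifit3- cell, and Ifna13 had 11 counts in Ifit3- cell 42. Ifnz, a member of the type I family, was at 0.0898 CPM in Ifit3+ cells and at 1.54 CPM in Ifit3- cells, where 2 cells had counts and only cell 41 had at least 10.

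Receptors and signaling genes were mixed. Of 23 tested genes 3 were called higher and 1 lower, beside 2.32% and 13.7% of all genes, and the median log2 ratio was 0.30 but -0.29 when cells were scaled by spike-ins. The genes for the gamma receptor chain Ifngr1 (95.7 CPM in Ifit3+ against 95.2 in Ifit3- cells), the type I receptor chain Ifnar2 (50.3 against 51.5) and the kinase Jak1 (174 against 182) had nearly equal levels in both groups. Ifnar1, the other type I receptor chain, was the gene called lower: it was at 7.38, 0, 8.08, 0 and 0 CPM in the Ifit3+ cells, while Ifit3- cells had a median of 48.8 and a highest value of 314 CPM. Its log2 ratio was -3.83, and -4.37 to -3.55 with any 1 cell left out.

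Irf7 and Irf2 were among the signaling genes called higher.
Irf7, the factor that amplifies type I interferon responses, was at 351, 661, 0, 109 and 121 CPM, against a median of 0 and a highest value of 131 CPM in Ifit3- cells. Cell 75 had none of it. The log2 ratio was 4.05 (3.47 to 4.65 with any 1 cell left out).
Irf2, a factor that binds the same element and dampens the response, was even across the Ifit3+ cells at 46.8, 45.8, 22.3, 26.8 and 21.1 CPM and had a log2 ratio of 1.37 (1.14 to 1.56). Irf1, an early transcription factor of the response, was at 82.7, 2263, 144, 163 and 181 CPM with a log2 ratio of 1.34 that became -0.49 without cell 68, so it was not called.

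**Figure D1:**
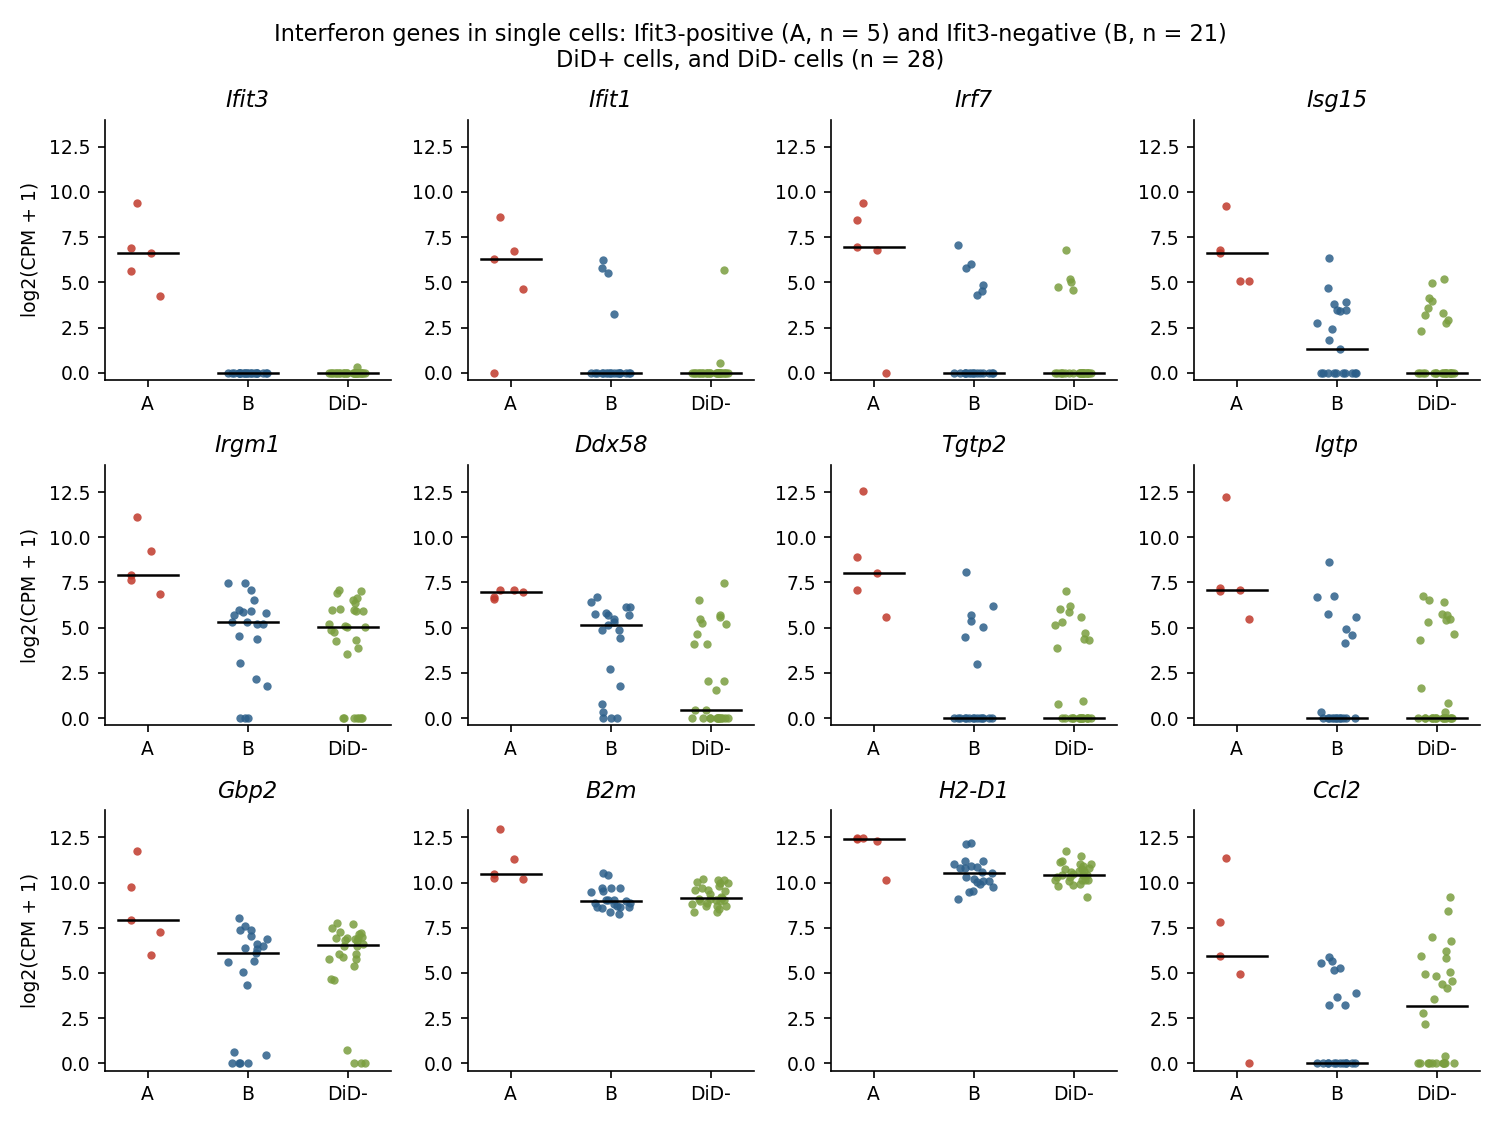
Levels of 12 genes in each cell, as log2(CPM + 1) on the vertical axis, for the 5 Ifit3+ cells (A), the 21 Ifit3- cells (B) and the 28 DiD- cells. Points are cells and black lines are medians. Ifit3 had 0 counts in every Ifit3- cell, whereas the other genes overlapped between the groups, and Ddx58 was nearly even across the Ifit3+ cells, from 96.1 to 135 CPM.

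Sensors of foreign nucleic acid and their adaptors were mixed as well. Of 19 tested genes 7 were called higher and 2 lower, beside 2.32% and 13.7% of all genes, the median log2 ratio was 1.44, and it was 0.63 without cell 68. Such a median without a cell covers the genes that still reached 1 CPM. Ddx58 (RIG-I), a cytosolic sensor of viral RNA, was the most even of the genes that were higher: it was at 96.1, 135, 126, 132 and 101 CPM in the Ifit3+ cells, against a median of 34.7 and a highest value of 103 CPM in Ifit3- cells. Its log2 ratio of 1.68 ran from 1.60 to 1.81 when single cells were left out, and its level did not single out cell 68.
Ifih1 (MDA5), the sensor of long double-stranded RNA, was at 22.4 against 4.17 CPM (log2 ratio 2.18). Zbp1, a sensor of Z-form nucleic acid that can start necroptosis, was at 41.4, 472, 5.23, 12.6 and 20.5 CPM against 2.03 CPM in Ifit3- cells, with a log2 ratio of 5.01 and 2.94 without cell 68. The genes called lower were Mavs, the mitochondrial adaptor of the RNA sensors, and Cgas, the cytosolic DNA sensor. Mavs had 0 counts in all Ifit3+ cells and 56.3 CPM in Ifit3- cells, of which 14 had at least 10 counts, and was thus at least 418-fold lower. Cgas had 0 counts against 3.25 CPM and was at least 24.1-fold lower, and at least 10.7-fold without cell 25. Tmem173 (STING), the adaptor downstream of Cgas, was at 150.1 against 151 CPM.

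Interferon-stimulated effectors, the antiviral genes that carry out the response, were higher as a group. Of 77 genes other than Ifit3, 68 were tested, 6 of them with 1 CPM in Ifit3+ cells alone, and 7 had no counts. At least 2-fold higher were 43, beside 11.7% of all genes. Of the 68 tested, 26 were called higher and 2 lower, beside 2.32% and 13.7% of all genes, and 57 had a log2 ratio above 0. The median log2 ratio was 1.64, beside -0.11 for all genes, and 1.52 over the 62 genes that reached 1 CPM in Ifit3- cells. Without cell 68 the list median was 1.06, and 0.99 over the same 68 genes. The list shares 5 genes with the signaling list, 6 with the sensors, 3 with the cell death genes and 1 with the class I genes. It also holds Ifit3b, a near-identical copy of Ifit3 that is among the 26 called higher. That gene is not independent of the rule.
Of the 43 genes, 30 were highest in cell 68 and 22 had over 50% of their Ifit3+ counts there. Without cell 68, 34 of all 68 tested effectors were at least 2-fold higher. Of the 26 called genes, 15 had at least 10 counts in each of the 5 Ifit3+ cells.

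Ifit1, near Ifit3 on the same chromosome, was at 0, 391, 24, 105 and 78.8 CPM in the Ifit3+ cells. The highest value in Ifit3- cells was 74.2 CPM, and 4 of these cells had at least 10 counts. Cell 22 thus had 707 counts of Ifit3 and none of Ifit1, and no Ifit3b either. The log2 ratio of Ifit1 was 3.55 (2.41 to 4.0). Ifit3b, a near-identical copy of Ifit3 whose reads cannot be cleanly told from it, was at 452 CPM in cell 68, 39.5 in cell 80 and 0 in the other Ifit3+ cells and in all Ifit3- cells.
Isg15, a ubiquitin-like modifier, was at 97.3, 606, 32.3, 32.2 and 112 CPM, against a median of 1.52 and a highest value of 79.5 CPM in Ifit3- cells. Cells 22, 68 and 83 were above all Ifit3- cells, and the log2 ratio was 4.27 (3.14 to 4.79).
Ifitm3, a membrane protein that blocks viral entry, was at 4265, 8051, 2399, 1217 and 1630.1 CPM against a median of 1052 and a highest value of 3547 CPM in Ifit3- cells, with a log2 ratio of 1.54 (1.10 to 1.73). It was already present throughout the Ifit3- cells, and it supplied 21.5 to 41.3% of the summed effector CPM of an Ifit3+ cell.

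Further effectors that were called higher were Parp14, an ADP-ribosyltransferase (72.5 against 4.67 CPM, log2 ratio 3.70), Rtp4 (92.5 against 11.5 CPM, 2.90), Dtx3l, a ubiquitin ligase (65 against 7.9 CPM, 2.89), Bst2 or tetherin, which holds virions at the cell surface (369 against 75.8 CPM, 2.27), and the secreted glycoprotein Lgals3bp (742 against 299.7 CPM, 1.31). Several familiar members came from cell 68 almost alone and were not called: 100% of the Ifit3+ counts of Ifi44, 99.1% of those of Oas1g and 95.5% of those of Oas1a were in that cell. Slfn8 (0.0449 against 7.81 CPM) and Trim34a (0.0449 against 3.88 CPM) were the effectors called lower.

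**Figure D2:**
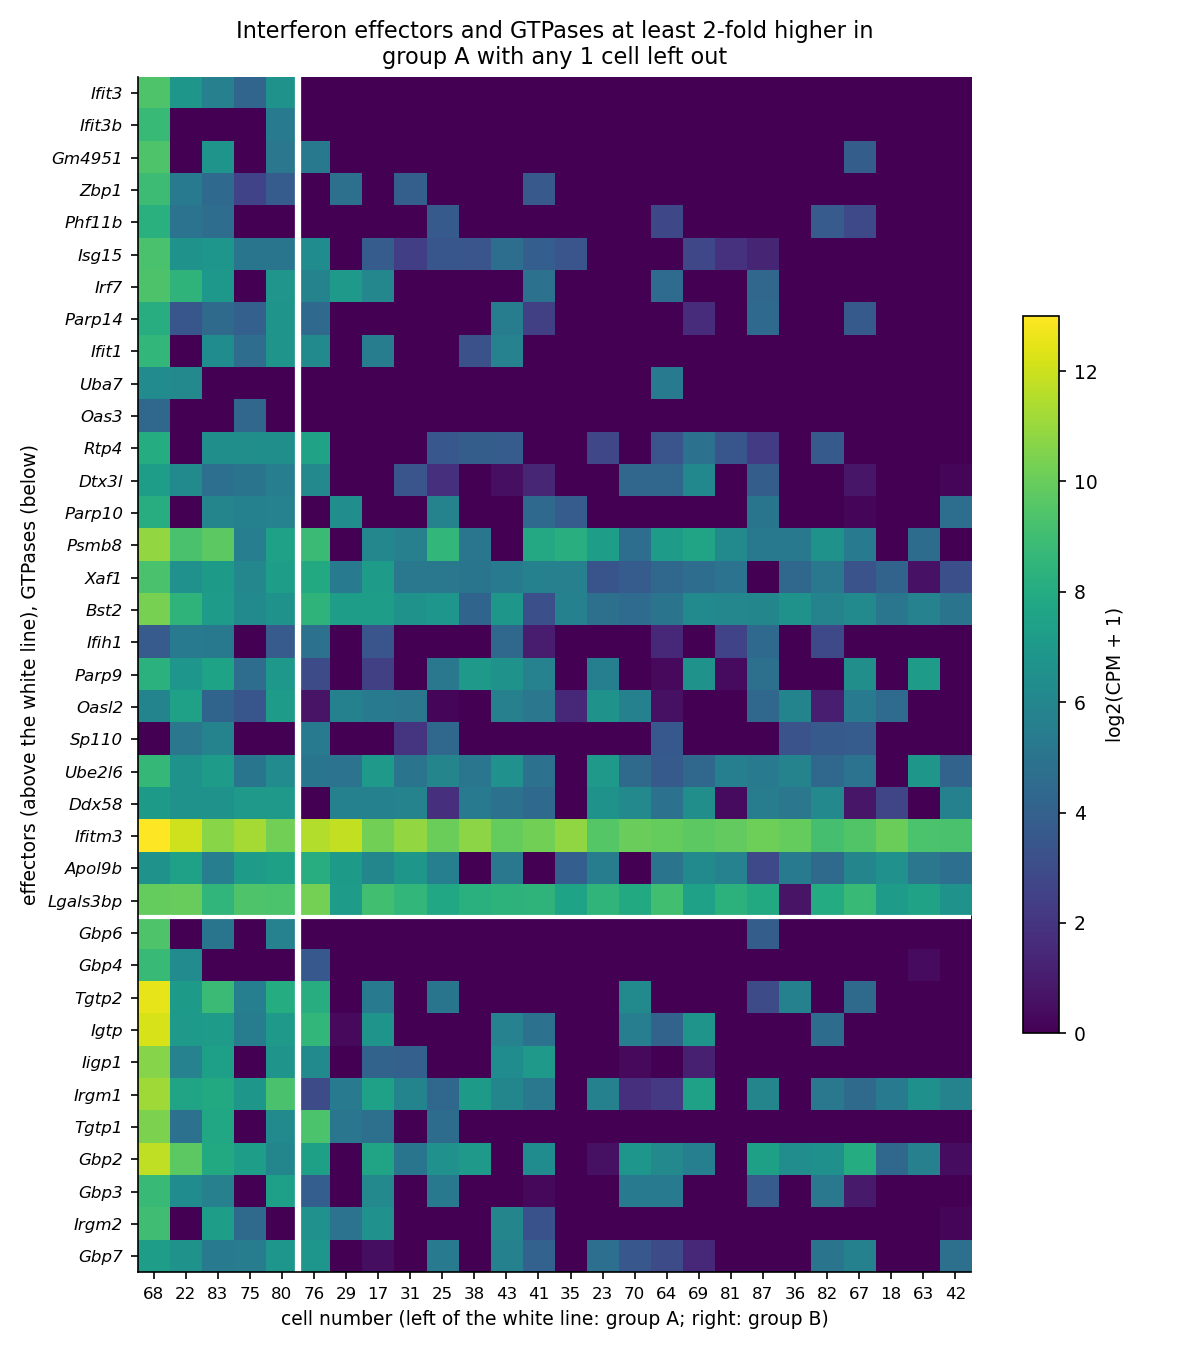
Levels in each of the 26 cells of interferon-stimulated effectors called higher together with Ifit3 (above the horizontal white line) and of the GTPases called higher (below it), as log2(CPM + 1) in color. Columns are cells ordered by their summed effector CPM, with the 5 Ifit3+ cells left of the vertical white line. Cell 68 was highest for most genes, and cell 76 was the Ifit3- cell with the highest summed effector level, 9612 CPM.

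The immunity-related and guanylate-binding GTPases, which attack the vacuoles of intracellular microbes and are strongly induced by interferon gamma in mouse cells, had the highest median ratio of the lists. Of 18 genes 15 were tested, 4 of them with 1 CPM in Ifit3+ cells alone, which the filter let pass only because they were high there. The 15 were at least 2-fold higher and 11 were called higher, beside 11.7% and 2.32% of all genes, with a median log2 ratio of 3.54, and 3.48 over the 11 that reached 1 CPM in Ifit3- cells. Without cell 68 the median of the same 15 genes was 1.96 and 11 of them were still at least 2-fold higher, and 14 of the 15 had over 50% of their Ifit3+ counts in cell 68.
Tgtp2 was at 135, 5920.3, 48.0, 264 and 472 CPM, against a median of 0 and a highest value of 272 CPM in Ifit3- cells, and had a log2 ratio of 5.76 (3.39 without cell 68). Igtp was at 132, 4766, 44.4, 132 and 143 CPM, against a highest value of 389 CPM, and its log2 ratio of 4.74 fell to 1.81 without cell 68. In both genes cell 75 was the lowest of the Ifit3+ cells. Reads of Tgtp2 and its near copy Tgtp1 may have been split between them, and Tgtp1 was at 297 against 25.4 CPM.
Irgm1, which regulates the other members of the family, was at 194, 2248, 117, 607 and 239 CPM, against a median of 38.1 and a highest value of 175 CPM in Ifit3- cells, so only cell 75 overlapped with them. Its log2 ratio was 3.54 (2.40 to 3.86). Gbp2 was at 854, 3494, 152, 62.0 and 241 CPM against 79.6 CPM in Ifit3- cells (log2 ratio 3.48, 2.25 without cell 68). Gbp7 was the most even, at 98.8, 153, 43.5, 115 and 41.6 CPM against 18.5 CPM (2.19, 1.96 to 2.46). Iigp1 (333 against 14.3 CPM), Gbp6 (127 against 0.560 CPM) and Gbp4 (90.7 against 0.380 CPM) were also called higher.

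Class I antigen presentation genes, which cut, carry and display peptides to cytotoxic T cells, were higher by less. Of 21 tested genes, 2 of which passed the filter through Ifit3+ cells alone, 13 were at least 2-fold higher, beside 11.7% of all genes, and 7 were called higher and none lower, beside 2.32% and 13.7%. The median was 1.44, and 1.38 over the 19 genes that reached 1 CPM in Ifit3- cells. Over the same 21 genes without cell 68 it was 0.79. B2m, the invariant light chain of class I, was at 1399, 8111, 1168, 2562 and 1205 CPM, against a median of 505 and a highest value of 1501 CPM in Ifit3- cells, with a log2 ratio of 2.10 (1.32 to 2.32). Cells 68 and 80 were above every Ifit3- cell.
The heavy chain H2-D1 was at 5526, 5717, 1118, 5063 and 5582 CPM, against a median of 1482 and a highest value of 4687 CPM. Cells 22, 68, 80 and 83 were above every Ifit3- cell and cell 75 was below their median. Its log2 ratio of 1.44 moved little, to 1.34 to 1.67. H2-K1 was at 1575, 2768, 368, 668 and 1355 CPM, against a highest value of 1322 CPM (log2 ratio 1.64). Reads of the class I heavy chains can be shared among these similar genes.
The peptide transporter Tap1 (212 against 38.4 CPM, log2 ratio 2.44, 1.2 without cell 68), the immunoproteasome subunits Psmb8 (699.7 against 112 CPM, 2.64) and Psmb9 (146 against 24.6 CPM, 2.52) and the loading factor Tapbp (520.4 against 155 CPM, 1.74) were all higher, whereas Canx, a general chaperone of the endoplasmic reticulum, was at 512 against 502 CPM.

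**Figure D3:**
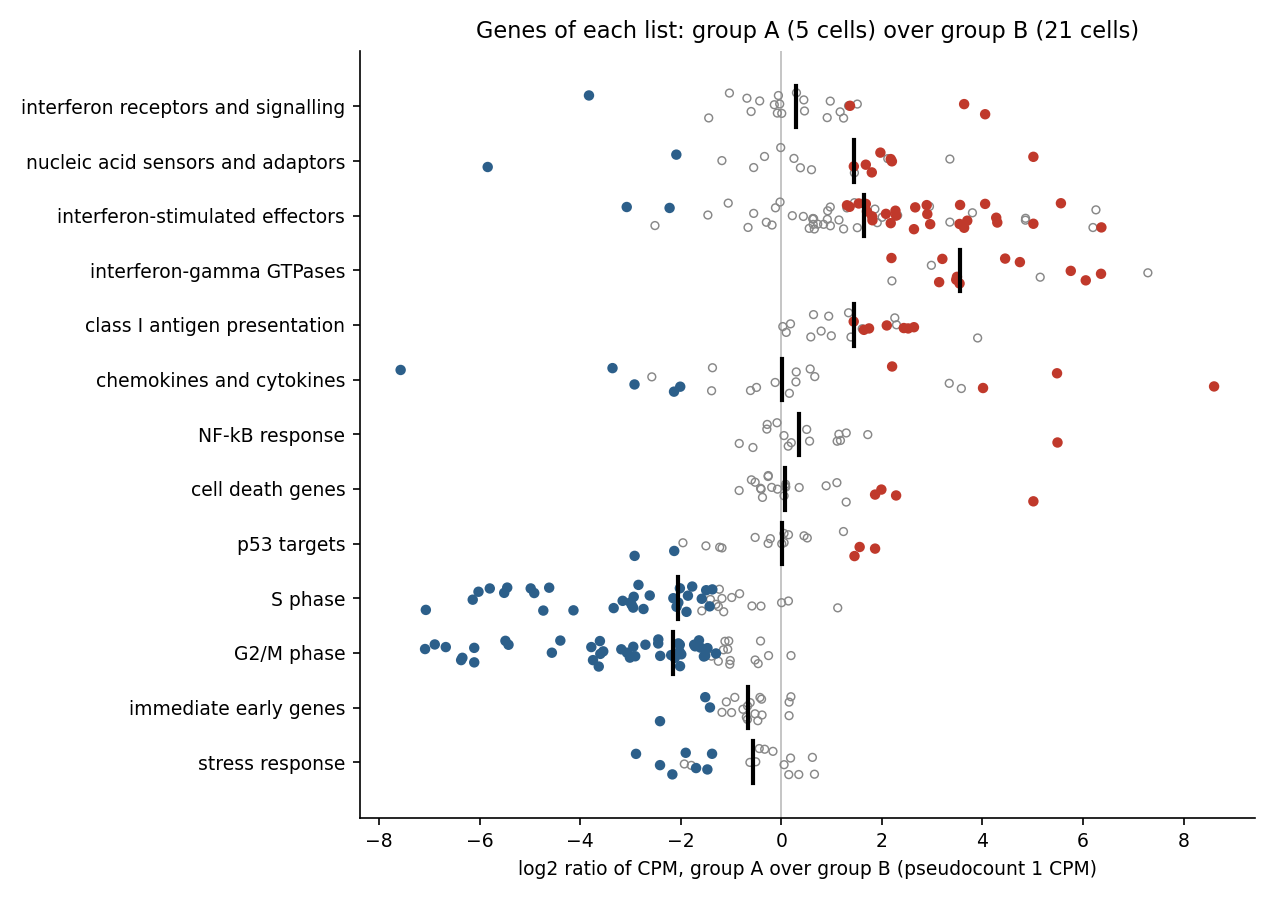
Log2 ratio of Ifit3+ over Ifit3- cells on the axis of values for every tested gene of each list, with 1 point per gene. Filled red and blue points are genes called higher and lower, and black bars are list medians. The GTPases (median 3.54) and effectors (1.64) lay above 0, and the S (-2.05) and G2/M (-2.16) genes below it.

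Secreted signals divided into genes that were higher and genes that were lower. Of 22 tested chemokine and cytokine genes 4 were called higher and 5 lower, beside 2.32% and 13.7% of all genes. Ccl2, an attractant of monocytes, was at 225, 2598, 0, 29.3 and 60.9 CPM against a median of 0 and a highest value of 58.6 CPM in Ifit3- cells, with a log2 ratio of 5.48 (3.05 without cell 68). Cell 75 had none. Ccl7, of the same family, was at 154 against 8.59 CPM (4.01).
Ccl5, an attractant of T cells, was at 1389.7, 0, 11.9, 85.6 and 0 CPM, and 95.7% of its counts were in cell 22. No Ifit3- cell had a count of it, so it was at least 12265-fold higher, and at least 714-fold without cell 22. Cxcl10, the classical chemokine of the interferon gamma response, was at 324 CPM in Ifit3+ cells with 98.9% of the counts in cell 68, and its log2 ratio without 1 cell ran from -2.33 to 4.58. Il15, a growth factor of NK cells, was at 47.5 against 9.53 CPM (2.20).
Among the genes called lower were Il33, an alarmin (91.8 against 373 CPM, log2 ratio -2.01), Lif (0 against 9.25 CPM) and Csf2, the macrophage growth factor GM-CSF, which had 0 counts in Ifit3+ cells and came from 3 Ifit3- cells with up to 3511 CPM.

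Beside the same 2.32% and 13.7%, of 16 tested NF-kB response genes 1 was called higher and none lower, and of 22 cell death genes 4 were called higher and none lower, among them Casp1, the protease of inflammasomes (194 against 48.1 CPM, log2 ratio 1.99), and the death receptor Fas (89.8 against 23.9 CPM, 1.86). Of 19 p53 targets 3 were called higher and 2 lower. Sesn1, a stress-induced regulator of growth signaling, was among the former (556 against 188 CPM, 1.56), whereas the cell cycle inhibitor Cdkn1a was at 385 against 903 CPM (-1.23, -1.56 to -0.97) and was not called.

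The response was then summed for each cell. Effectors without Ifit3 summed to 10329.5, 29396, 6289, 5659 and 7189 CPM in the Ifit3+ cells, against 1961 to 9612 CPM (median 3396) in Ifit3- cells and 1893 to 5915 CPM (median 3257) in DiD- cells. Only 2 Ifit3- cells, 76 and 29, reached the lowest Ifit3+ cell. GTPases summed to 1756, 24315, 448, 1662 and 1788 CPM, against 0 to 1869.8 CPM (median 265), and class I genes to 14877, 31863, 7007, 13533 and 14362 CPM, against 3852 to 12917 CPM (median 5632).
By these sums cell 68 was the highest and cell 75 low in all 3 lists, below cells 22 and 83 in each. By the number of genes the order was less steep: 44, 52, 39, 43 and 46 of the 77 effectors had at least 10 counts in the Ifit3+ cells and 20 to 43 (median 29) in Ifit3- cells. Per spike-in count, the summed interferon-stimulated counts were 0.203 to 0.543 (median 0.421) in Ifit3+ cells and 0.0757 to 0.545 (median 0.207) in Ifit3- cells, so on that scale the groups overlapped widely. Cell 68 had both the highest spike-in share and the highest CPM sum, and the part of its RNA content in the latter was not tested.

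**Figure D4:**
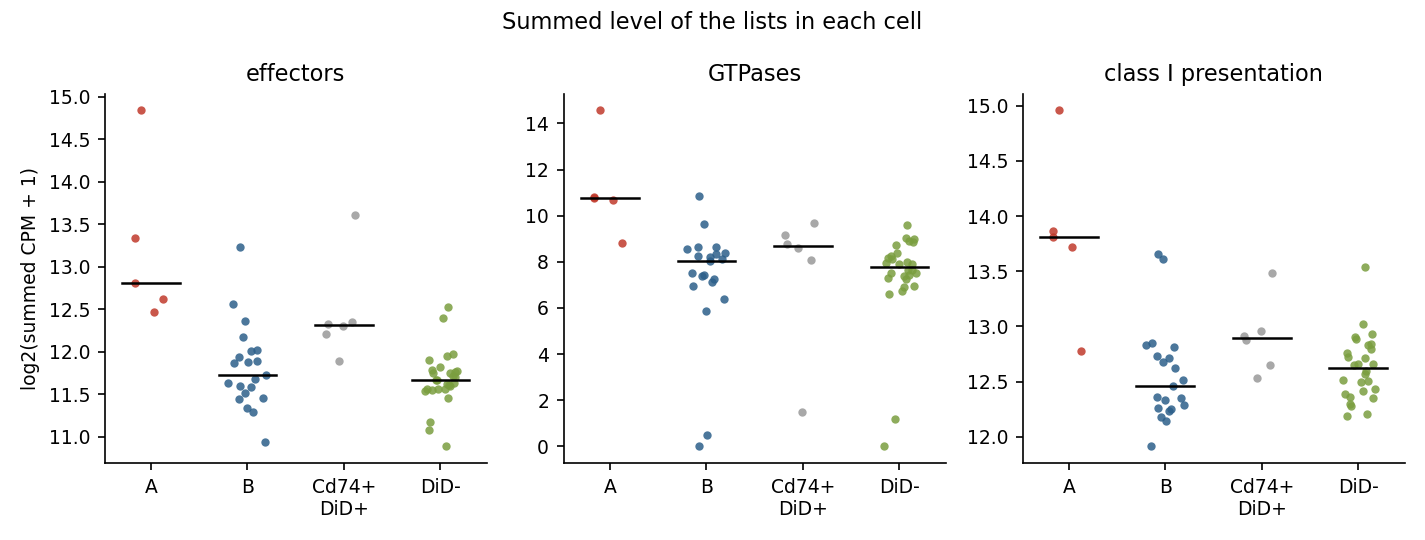
Summed level per cell of effectors, GTPases and class I genes, as log2(summed CPM + 1) on the vertical axis, for Ifit3+ cells (A), Ifit3- cells (B), the Cd74-positive DiD+ cells set aside and DiD- cells. Each point is a cell. Effector sums were 5659 to 29396 CPM in Ifit3+ cells and 1961 to 9612 CPM in Ifit3- cells.

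The Ifit3- cells were not uniformly without the response. Cell 76 had 0 counts of Ifit3 but an effector sum of 9612 CPM, 43 effectors with at least 10 counts, a GTPase sum of 1869.8 CPM and a class I sum of 12917 CPM. Its Ifit1 was at 74.2, its Irf7 at 54.5, its Isg15 at 79.5, its Tgtp2 at 272 and its Igtp at 389 CPM, so for Ifit1, Isg15, Tgtp2 and Igtp it was the highest Ifit3- cell. Cell 17, with an effector sum of 5276 CPM, had 38 effectors, a class I sum of 12548 CPM and Ifit1 at 45.4 CPM. Cell 29 had a sum of 6038 CPM with only 24 effectors, Irf7 at 131 CPM and 4 of 5 platelet markers.

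Of the lists, the cell cycle genes held the most genes that were lower. Of 45 S phase genes, all tested, 38 were at least 2-fold lower, beside 23.6% of all genes, and 31 called lower, with a median log2 ratio of -2.05 (-2.15 when the 12 genes at 0 in Ifit3+ cells take their bound). Of 54 G2/M genes 49 were at least 2-fold lower and 41 called lower, with a median of -2.16, and 5 were at 0. None of either list was called higher. Over all genes, 2.32% were called higher and 13.7% lower.
Ccna2, the cyclin of S phase and G2, had 0 counts in Ifit3+ cells and 246 CPM in Ifit3- cells, where 12 of 21 cells had at least 10 counts and the highest had 862 CPM. It was at least 1826-fold lower. The motor protein Kif11 was also at 0 in all 5 cells (135 CPM in Ifit3- cells, at least 1001-fold lower). So were the replicative helicase subunit Mcm3 (133 CPM, at least 990.1-fold) and the cytokinesis motor Kif23 (101 CPM, at least 750.3-fold). The kinetochore protein Ndc80 (81.6 CPM, at least 606-fold) and the DNA methylation factor Uhrf1 (69.4 CPM, at least 515-fold) were at 0 there too. Kif11 and Ndc80 had at least 10 counts in only 8 of 21 Ifit3- cells each, with a median of 0 CPM. Mcm3, Uhrf1 and Kif23 had them in 11, 12 and 14 of these cells. The bounds compare summed counts, so they do not describe a typical Ifit3- cell.
Pcna, the clamp of DNA polymerase, was low but present in each Ifit3+ cell, at 88.7, 87.3, 53.2, 73 and 60.6 CPM, against a median of 171 and a highest value of 929 CPM in Ifit3- cells. Its log2 ratio was -2.08 (-2.20 to -1.81). Ube2c (1.21 against 179 CPM), Aurkb (1.26 against 155 CPM), Cdca8 (0.404 against 166 CPM) and Ect2 (0.0449 against 71.1 CPM), genes of mitosis and cytokinesis, were among the genes with the lowest ratios of all.

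Cell 80 differed from the other Ifit3+ cells in its mitotic genes. G2/M genes summed to 1689, 753, 1236, 6753 and 1449 CPM in the Ifit3+ cells, against 827 to 32905 CPM (median 3731) in Ifit3- cells, and 40 of the 54 genes had at least 10 counts in cell 80 against 8 to 28 in the other 4. Cell 80 held Ccnb1 at 255, Cdc20 at 381, Birc5 at 379 and Mki67 at 69.3 CPM. Without cell 80 the G2/M median was -4.16.
S phase genes summed to 1603, 526, 413, 1883 and 2036 CPM, against 584 to 15371 CPM (median 2088) in Ifit3- cells. The groups overlapped on the low side: 11 of 21 Ifit3- cells were above the highest Ifit3+ cell for S phase and 8 of 21 for G2/M, while 25 and 14 of 28 DiD- cells were. So many DiD+ cells without Ifit3 had cycle gene levels as low as those of the Ifit3+ cells.
Low cycle genes did not come with a high interferon sum in each case. The 8 Ifit3- cells that were no higher than the highest Ifit3+ cell in both sums had effector sums of 3163 to 9612 CPM, median 4020. Across the 21 Ifit3- cells the effector sum had a Spearman correlation of -0.57 with the G2/M sum and -0.40 with the S phase sum, and across the 28 DiD- cells -0.45 and 0.02. These are descriptions across single libraries, whose sums share 1 total, and within the Ifit3- cells the effector sum also had a correlation of -0.39 with the number of genes detected.

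**Figure D5:**
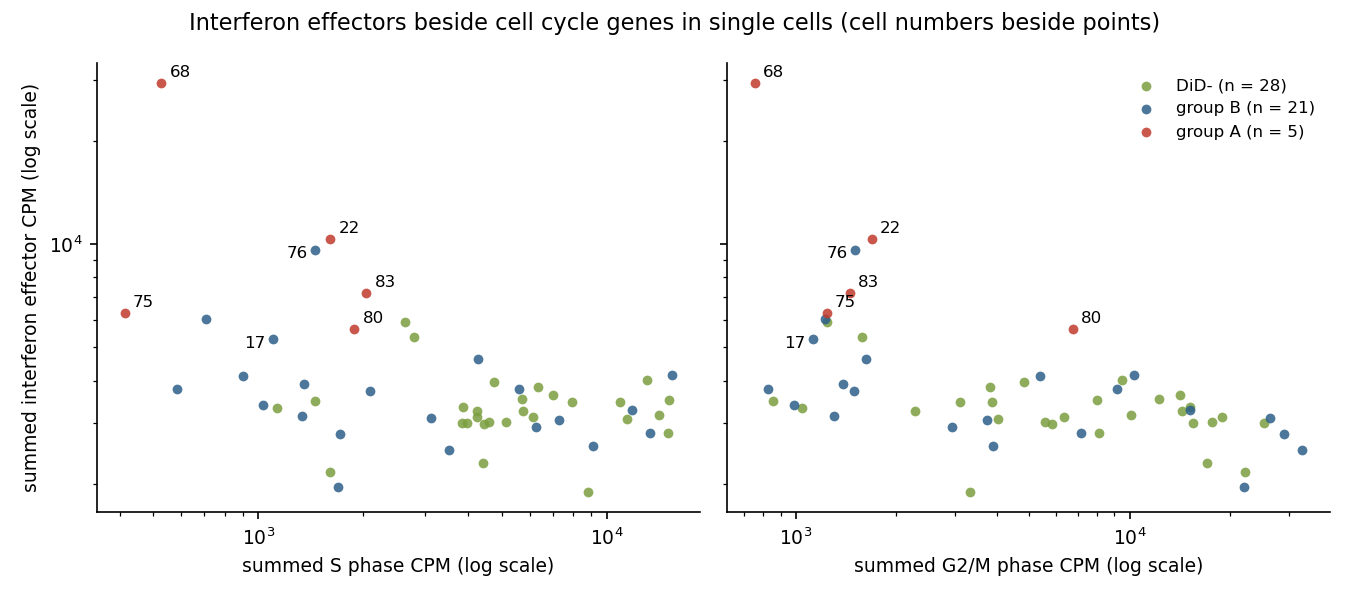
Summed effector CPM against summed S phase CPM and summed G2/M CPM, with 1 point per cell and log axes. Ifit3+ cells (A), Ifit3- cells (B) and DiD- cells are in separate colors. The 5 Ifit3+ cells lie at effector sums of 5659 CPM or more and at S phase sums of 2036 CPM or less, and cell 80 has the highest G2/M sum among them, 6753 CPM.

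Immediate early and stress genes, which can be switched on while tissue is dissociated, were not higher in Ifit3+ cells. Of 20 immediate early genes none was called higher and 3 were called lower, and of 20 tested stress genes none and 7, beside 2.32% and 13.7% of all genes, so the first list lay near the background. Immediate early genes divided the Ifit3+ cells, with sums of 20069, 1645, 1402, 12760 and 20958 CPM, and Fos was at 3647, 0, 207, 3084 and 4872 CPM. Cells 68 and 75 were both low, although their GTPase sums were the highest and lowest of the 5. Called lower were the factor gene Fosl1 (112 against 320.2 CPM), Myc (48.1 against 130.3 CPM, log2 ratio -1.42), the stress factor Atf3 (106 against 572 CPM), the chaperone gene Hspa1a (43.2 against 327 CPM), which shares reads with its copy Hspa1b, and Txnrd1, an enzyme of the oxidative stress response (30.6 against 167 CPM, -2.41).

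Genes that the study named as higher in DiD+ cells were chosen by it on these samples, so their direction against DiD- cells is no independent evidence. Between Ifit3+ and Ifit3- cells 1 of 11 was called higher and 2 lower, beside 2.32% and 13.7% of all genes. The former was Dhrs3, an enzyme of retinoid metabolism (97.9 against 14.6 CPM, log2 ratio 2.66), and the latter were Gas6, the ligand of the Axl receptor family (1.80 against 36.9 CPM, -3.76), and Pdgfrb, a growth factor receptor of stromal cells (8.35 against 86.6 CPM, -3.23). Mgp, an inhibitor of calcification, was at 956 against 984 CPM, and Ogn at 255 against 37.6 CPM with 79.5% of the Ifit3+ counts in cell 68. Of 30 tested matrix genes none was called higher and 5 were called lower, which is near the 13.7% of all genes.

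Most defining markers of immune cells were low or at 0 in the Ifit3+ cells. Of 13 macrophage markers, 2 had counts in any Ifit3+ cell: Cd14, with counts in all 5, at 47.3 CPM against 25.9 CPM in Ifit3- cells, and Cd68, whose counts were all in cell 83. Lyz2, Adgre1, Csf1r, Tyrobp, the C1q genes and Cd74 were at 0. The rule itself kept only cells with fewer than 10 counts of Cd74. The 6 cells it set aside had macrophage marker sums of 1424 to 20303 CPM. Low macrophage markers in both groups are therefore no independent check. The 13 macrophage markers summed to 12.6 to 177 CPM per Ifit3+ cell and 0 to 191.6 CPM per Ifit3- cell. The 8 T and NK cell markers had no count in either group. Of 7 B and plasma cell markers, Cd79a had 29 counts, all in cell 80, and the others had none in Ifit3+ cells. Of 9 dendritic cell markers, Bst2, which is also in the effector list and was called higher, and Tcf4 (75.2 against 92.2 CPM) had counts in all 5 Ifit3+ cells and the other 7, Siglech, Flt3 and Itgax among them, had none. The list summed to 86.2 to 1661 CPM in Ifit3+ cells, highest in cell 68, and to 50.3 to 406 CPM in Ifit3- cells. Mesenchymal stromal markers summed to 17.3 to 735 CPM in Ifit3+ cells and 65.6 to 4251 CPM in Ifit3- cells. The part of other cells in the values was not tested.
Tumor cell transgenes reached 10 counts in most cells of both groups: luciferase in 5 of 5 Ifit3+ and 20 of 21 Ifit3- cells (56.5 and 87.7 CPM), mApple in 5 and 19 (71.5 and 61.7 CPM) and EGFP in 5 and 19 (19.7 and 28.4 CPM), but the Pymt transgene in 2 and 4 (3.64 and 2.55 CPM).

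The Ifit3- cells were also set beside the DiD- cells, to see the level of the response in DiD+ cells without Ifit3. The limit on Cd74 was not applied to DiD- cells, of which the highest had 860 counts of it. Their macrophage markers summed to up to 2053 CPM per cell and their erythroid markers to up to 46548 CPM. The part of other cells' RNA in this reference was not tested. Of 12147 genes tested 2.94% were called higher and 2.4% lower. Without regard to single cells, 9.42% were at least 2-fold higher and 6.12% lower. Of 66 tested effectors 12 were at least 2-fold higher and 5 lower in Ifit3- cells, 4 were called higher and 3 lower, and the median log2 ratio was 0.21 but -0.11 with spike-in scaling, so it had no settled direction. GTPases had a median of 0.47 with 3 genes called higher, and class I genes a median of 0.06 with 1. In S phase genes the median was -0.32 with 2 called lower, and in G2/M genes -0.02 with none called in either direction. These 2 comparisons share the Ifit3- cells.

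Genes were also ranked without lists. Among the 20 highest ratios with at least 10 CPM were Ifit3 itself, which the rule used, and 5 other genes of the effector list. Among the 5 was Ifit3b, whose reads cannot be cleanly told from those of Ifit3. Of all 255 genes that could be ranked there, 25 were in that list without Ifit3 but with Ifit3b. The list held 68 of the 12195 genes tested. The GTPases Tgtp2, Igtp, Iigp1, Gbp6 and Gbp4 were also among the 20. Others at the top were Gm4951 (143 against 2.05 CPM) and Gm12250 (58.7 against 0.856 CPM), Il18bp, the inhibitor of interleukin 18 (134 against 4.42 CPM), and Ifi205 (47.9 against 0.0634 CPM, log2 ratio 5.52) and Ifi207 (84.6 against 2.81 CPM), interferon-inducible DNA-binding proteins of a family whose members share reads. Phf11b (63.8 against 2.3 CPM), Serinc5, a membrane protein that restricts retroviruses (20.7 against 0.137 CPM), and Lipt1, a lipoic acid transferase (70 against 1.80 CPM), followed, and Pcdhga7, a protocadherin, was at 24.2 CPM with no count in Ifit3- cells (at least 764-fold higher, and 427-fold without cell 83).
The genes whose levels ranked the 26 cells most like Ifit3 did, of 8505 screened, were Tgtp2 and Isg15 (Spearman correlation 0.68 each), Ddx58 (0.66), Irgm1 and Parp14 (0.65 each), Dtx3l and B2m (0.63 each), and Sergef, Igtp and Gbp7 (0.62 each). Ifit3 is 0 in all 21 Ifit3- cells, so these values mainly give how far a gene was higher in the 5 Ifit3+ cells.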

How the data were processed

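PyMT-Bo1 cells from the pooled bones of 5 mice were the samples, grouped as DiD+ or DiD- by the labels and then by counts of Cd74 and Ifit3. Per the labels and methods, cDNA was amplified for 18 cycles with ERCC spike-ins, and reads were aligned with STAR to GRCm38/mm10 with spike-ins and transgenes added. The authors deposited estimated counts from RSEM for 47729 mouse genes (47224 with a symbol), 92 spike-ins and 4 transgenes, of which 96.6% of values were whole, and all were rounded. The authors also deposited a BASiCS-normalized signal table, used here only as an alternative. Similar genes may share reads.

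The counts of a group's cells were added up, divided by the total on mouse genes, and compared as log2 ratios with a pseudocount of 1 CPM for genes that reached 1 CPM in either group. A gene was present in a cell at 10 counts. Genes were named as the markers, the 20 highest and 10 lowest called ratios with at least 10 CPM, and the 10 most like Ifit3 across cells, and others are examples from the lists. The members and lists were chosen with earlier results of these data known. Some genes are not reported here by name.

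Alternatives were other limits, scalings (edgeR's TMM 4.0.16, DESeq2 1.42.0, spike-ins, BASiCS), pseudocounts, minimums, Cd74-positive cells kept, number runs, thinning to 2200000 counts per cell, and each cell left out. Leaving out cells 29 and 31 together and the sums after thinning were added after seeing the data. No cell was removed as a doublet. Steps were tested on simulated data. Python 3.11.15, numpy 2.4.6, pandas 2.3.3 and R 4.3.3 were used.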

Additional observations from a re-analysis of the deposited data

Results flagged for a closer look

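Of 29 measures per cell examined among the 5 Ifit3+ cells, 11 had 1 cell whose gap to the others exceeded the critical share of the range. For a single normally spread measure, chance gives this in about 1 in 20. The measures include the Ifit3 count that the rule used and Ifit3b, which shares its reads. Several lists share genes, and levels were not put on a log scale. The 11 of 29 can therefore not be set against that rate. In 10 of the 11 the cell was cell 68: it had a spike-in share of 6.53%, 2506 counts of Ifit3 and 1666 counts of Ifit3b. Its summed levels stood apart for effectors (29396 CPM), GTPases (24315 CPM), receptors and signaling genes (5624 CPM), sensors (1584 CPM), NF-kB response genes (5937 CPM) and cell death genes (4057 CPM). The same held for the list of DiD+ genes, at 7586 CPM. In cell 80 the summed G2/M level, 6753 CPM, stood apart.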

How the results depend on the processing

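Each value for Ifit3+ cells rests on 5 cells. No paired analysis was possible because replicate numbers follow accession order only and no label pairs cells. With any 1 cell left out, list medians of the log2 ratio of Ifit3+ over Ifit3- cells ran from 1.06 to 1.80 for effectors, 2.25 to 4.65 for GTPases and 0.83 to 1.67 for class I genes, each lowest without cell 68, from -2.73 to -1.85 for S phase genes (lowest without cell 83) and from -4.16 to -1.94 for G2/M genes (lowest without cell 80). Genes called higher were 264 to 313 and lower 1622 to 2073, called effectors 19 to 28, called GTPases 7 to 12, and called lower 27 to 34 S phase and 35 to 47 G2/M genes.

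With Cd74-positive cells kept (10 Ifit3+ cells), 544 genes were called higher and 1056 lower, and the medians were 2.61 for GTPases and -1.46 for S phase. Spike-in scaling moved the median of all genes to -0.69, called 132 genes higher, and gave 1.08 for effectors, 2.94 for GTPases and -0.11 for effectors of Ifit3- over DiD- cells. A pseudocount of 10 CPM called 113 higher and 623 lower with 1.15 for effectors, a minimum of 10 CPM called 1082 lower, and the mean of log2 values called 591 higher with -1.57 for G2/M. In cells 17 to 46 only, where cell 22 is the only Ifit3+ cell (1 cell), 1678 were called higher and 3822 lower, GTPases had 2.3, S phase -3.43 and G2/M -3.59, and Ifit1 (-3.36) and Lipt1 (-1.77) reversed. In cells 63 to 92 only, 7 GTPases were called. The cause was not tested. For the effector, GTPase, class I and cycle lists, counts and sums, the other 222 values stayed within set limits. Medians of other lists also moved. Matrix genes had -2.31 in cells 17 to 46, 0.33 in cells 63 to 92 and -0.72 with spike-in scaling, against -0.12. Receptors and signaling genes had -0.83 in cells 17 to 46, against 0.30. Immediate early genes had -0.28 there, -1.25 with spike-in scaling and -1.15 with the mean of log2 values, against -0.67. For a list median the limit was an interval of the median across the genes of the list, and for counts 1.5-fold. For summed levels per cell it was the spread between cells or the range with any 1 cell left out.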
